A study of Mus musculus with 17 samples.

Results

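The genes described here are 10 components of the transforming growth factor beta (TGF-beta) pathway, namely the ligand gene Tgfb1, the activation gene Nrros, the receptor genes Tgfbr1 and Tgfbr2, the SMAD genes Smad2, Smad3, Smad4 and Smad7, and the corepressor genes Ski and Skil. They were listed by name for their roles in the pathway, with earlier results of these data known, from 41388 gene IDs in the files, and each of the 10 matched 1 ID. All 10 passed the filter on low counts, which left 13060 genes for the tests. Gene counts from 17 RNA sequencing libraries of microglia from C57BL/6 mice were analyzed, and a library stands for a pool of mice. Microglia were sorted as CD11b+ cells with dim CD45 and split by surface CD11c, an integrin subunit encoded by Itgax. There were 3 libraries from untreated adult mice. Mice of both sexes in the first postnatal week gave 4 CD11c- and 4 CD11c+ libraries, and 3 of each kind came from female mice with experimental autoimmune encephalomyelitis (EAE). EAE is a model of autoimmune inflammation in brain and spinal cord, induced here by a myelin peptide in adjuvant with mycobacteria and pertussis toxin, and mice were taken when symptomatic. The adult libraries carry titles of total microglia and a population label of CD11c-negative cells, and none of the groups carries a transgene or deletion by its labels. Age, treatment and the mix of sexes all differ between neonates and EAE mice, so these cannot be told apart in a direct comparison of the 2. The sex of the adult mice is not given here, and its part in the comparisons with adult microglia was not tested.

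TGF-beta is secreted in a latent form, and microglia activate it with the help of the membrane protein that Nrros encodes. The active ligand joins the type II receptor (Tgfbr2) to the type I receptor (Tgfbr1), which phosphorylates SMAD2 and SMAD3. These bind SMAD4 and act on genes in the nucleus, while SMAD7 acts at the receptor and SKI and SKIL act on the SMAD complex as inhibitors that the pathway itself regulates. In the brain the pathway is known for maintaining the gene program of mature microglia.

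Counted reads per library ranged from 5115489 to 10436066. Values are CPM, counts scaled to a common library size, after TMM correction of the library sizes, and the floor of 3 counts was 0.288 to 0.572 CPM, far below the level of any member. Markers of microglia (10 genes, none at 0 in a group) summed to 38570 to 42370 CPM in adult, 28730 to 36280 in neonatal CD11c-, 27120 to 30800 in neonatal CD11c+, 30680 to 32860 in EAE CD11c- and 22390 to 26850 in EAE CD11c+ libraries. Every adult library was thus above all others in this sum, the same direction as most members, and its part in their differences was not tested. Itgax was 30.7 to 32.2 CPM in adult, 8.35 to 11.7 in neonatal CD11c-, 279 to 428 in neonatal CD11c+, 57.2 to 81.2 in EAE CD11c- and 320 to 450 in EAE CD11c+ libraries. Summed neutrophil markers (9 genes, none at 0 in a group) were 6794 to 13020 CPM in EAE CD11c-, 912 to 1861 in adult, 291 to 1651 in neonatal CD11c-, 42.4 to 71.7 in EAE CD11c+ and 9.55 to 11.8 in neonatal CD11c+ libraries. Summed monocyte markers (8 genes, none at 0) were 580 to 952 CPM in EAE CD11c- libraries and at most 161 elsewhere. Markers of border macrophages (8 genes, none at 0) were 909 to 1323 CPM in neonatal CD11c- and 1459 to 3430 in neonatal CD11c+ libraries, against 48.3 to 118 in the other 3 groups. The T and NK cell list reached at most 25.1 CPM, with Cd3e, Cd3g, Cd2 and Ncr1 at 0 in the adult and neonatal groups, and the B cell list at most 72.8 CPM with Pax5 at 0 in every group. Lists of astrocyte, oligodendrocyte, neuron and vascular genes summed to 0.863 to 218 CPM. The part of these other cells in the differences below was not tested. In such sorted pools, fewer cells of a type and less RNA per cell cannot be told apart. Mitochondrial genes took 5.10% of the counts in neonatal CD11c- library 17 and 2.23% in EAE CD11c+ library 1, against 0.588% to 1.56% in the other 15 libraries, and neonatal CD11c+ library 16 stood apart from its group in the immediate early genes given below. Some of the results that rest on these libraries are given with and without them.

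RefSeq promoters of GRCm38.p6 were at hand for Tgfb1, Nrros, Tgfbr1, Tgfbr2, Smad3 and Ski. The 250 bases before the annotated start are shown for Tgfbr1 and Smad3, because these were the 2 members called lower than in adult microglia in all 4 other groups. Tgfbr1 has a second promoter in the table, and the one shown lies at the start of the gene model. Capitals mark GC boxes (GGGCGG) and CCAAT boxes on either strand.
Tgfbr1, chr4:47352972-47353221, plus strand: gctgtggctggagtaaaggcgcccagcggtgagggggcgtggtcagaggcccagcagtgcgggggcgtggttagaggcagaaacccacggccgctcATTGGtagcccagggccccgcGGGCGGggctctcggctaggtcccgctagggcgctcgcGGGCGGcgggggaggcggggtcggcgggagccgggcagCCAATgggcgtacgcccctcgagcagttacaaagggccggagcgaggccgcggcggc
Smad3, chr9:63757995-63758244, minus strand: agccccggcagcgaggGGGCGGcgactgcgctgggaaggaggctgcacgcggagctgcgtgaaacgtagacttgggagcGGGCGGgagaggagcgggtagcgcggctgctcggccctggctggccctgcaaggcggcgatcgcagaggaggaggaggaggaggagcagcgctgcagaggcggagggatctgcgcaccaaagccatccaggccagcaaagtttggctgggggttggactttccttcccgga
Each window held 2 GC boxes, which 32.7% of 32851 promoter windows of this length held at least singly, and the Tgfbr1 window held 2 CCAAT boxes (33.9% of windows). Neither held a SMAD box (CAGAC, 42.2% of windows), an AP-1 site (TGANTCA, 6.75%) or a PU.1 core (GAGGAA, 23.3%) on either strand, and the marked matches did not overlap. A SMAD box was present in the windows of Nrros, of Tgfbr2 and of the other Tgfbr1 promoter, and 5 GC boxes were present in each of the windows of Tgfb1 and Ski. These are matches of letters in a window, not measured binding sites.

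In both neonatal groups most members were lower than in adult microglia, in EAE 3 (CD11c-) and 5 (CD11c+) of the 10 were, and none was called higher. Of the 10 members, 7 were lower in neonatal CD11c- microglia, where 12.1% of all tested genes were called lower and 13.2% higher. The same number, 7, was lower in neonatal CD11c+ microglia (15.3% of all genes lower, 18.0% higher). Over all genes the shares in EAE were 4.72% lower and 11.0% higher in CD11c-, and 11.1% lower and 15.1% higher in CD11c+ microglia. A gene was called, whatever its fold change, where edgeR's quasi-likelihood test in a model of all 5 groups gave an adjusted p (Benjamini-Hochberg) of at most 0.01. The median log2 fold change of the 10 members was -0.55, -0.68, -0.24 and -0.38 in that order of comparisons, against -0.005, -0.03, -0.01 and -0.008 over all tested genes. The count of members higher than in adult microglia was 0 in all 4 comparisons by edgeR's quasi-likelihood test. At an unadjusted p under 0.05 the counts of higher members were 0, 1, 0 and 0, as they were by DESeq2, while the likelihood ratio test gave 0 in each and limma voom gave 1, 1, 0 and 0. Nrros was the gene in each of these. The shares of all genes at the unadjusted threshold and by the other tests are not given here. All 4 comparisons share the adult libraries. When each library was left out in turn, the counts of lower members ran from 4 to 7, 6 to 7, 3 to 4 and 3 to 6. The 4 came without adult library 23, and the 3 in EAE CD11c+ came without adult library 23 or EAE CD11c+ library 2. Over the 5 groups, 8 members differed (47.7% of all genes did), the exceptions being Nrros and Smad2.

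**Figure D1:**
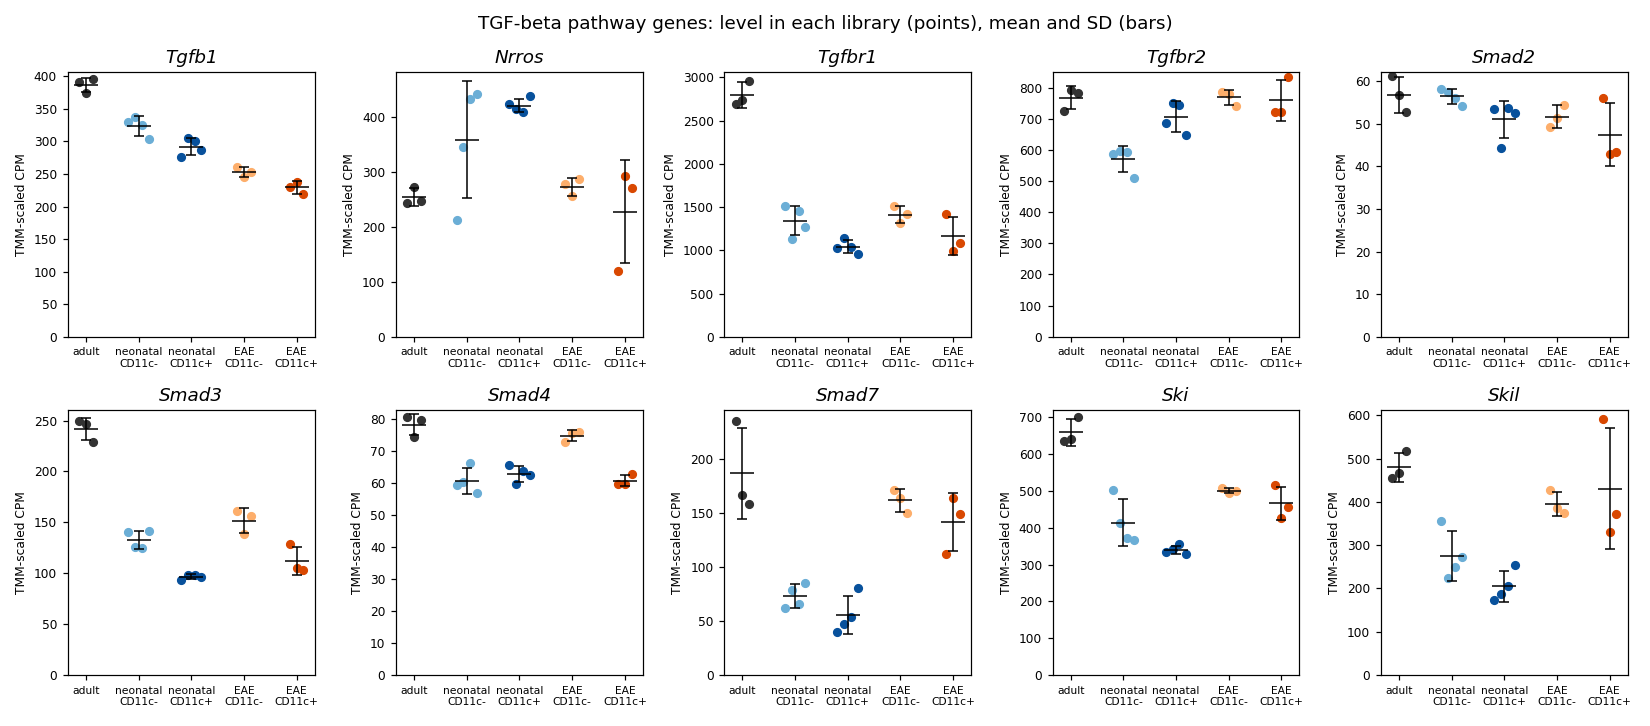
Level of each of the 10 genes in TMM-scaled CPM (y axis, from 0) in the 17 libraries, 1 point per library, by group (x axis). Horizontal marks are group means and bars the SD over libraries. Tgfbr1 and Smad3 of every neonatal and EAE library lie below the 3 adult libraries, and Nrros of libraries 17 and 1 lies far below the other libraries of its group.

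**Figure D2:**
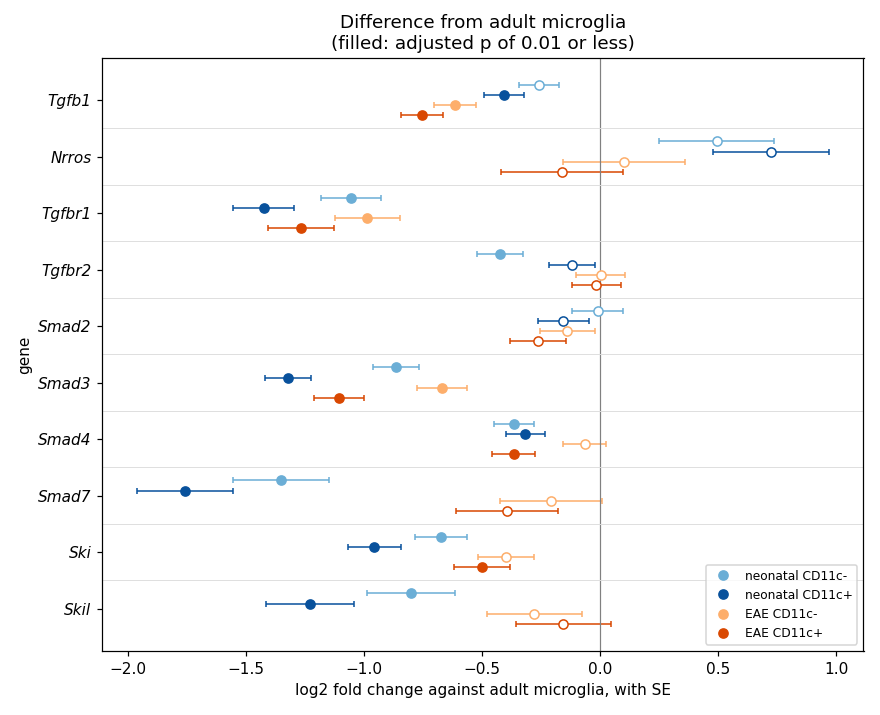
Log2 fold change against adult microglia (x axis) of the 10 genes (y axis) in 4 groups, with SE as bars. Filled points passed an adjusted p of 0.01. Smad7 and Skil are filled in the neonatal groups alone, and every filled point lies left of 0.

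Tgfb1, the gene of the ligand (chr7:25687002-25705077, plus strand, GRCm38, 5.04 kb of exon), was highest in adult microglia. The CPM values were 391, 375 and 396 in adult, 330, 338, 325 and 303 in neonatal CD11c- and 276, 306, 301 and 286 in neonatal CD11c+ libraries. In EAE they were 261, 246 and 253 in CD11c- and 230, 239 and 219 in CD11c+ libraries. Every library of the other 4 groups was below the lowest adult library, and every EAE library was below every neonatal one. The log2 fold changes against adult were -0.26 (SE 0.08, adjusted p = 0.0215) in neonatal CD11c- and -0.41 (SE 0.08, adjusted p = 0.000650) in neonatal CD11c+ microglia. In EAE they were -0.61 (SE 0.09, adjusted p = 5.27e-05) in CD11c- and -0.76 (SE 0.09, adjusted p = 3.00e-06) in CD11c+ microglia. Tgfb1 was thus called lower in all but neonatal CD11c- microglia. There it passed without libraries 1 and 17 (adjusted p = 0.00618) and by DESeq2 (adjusted p = 0.000456) and limma voom (adjusted p = 0.00170). With no filter on low counts the neonatal CD11c+ call was lost (adjusted p = 0.0166). It was higher in neonatal than in EAE microglia of the same subset, by a log2 fold change of 0.36 (SE 0.09, adjusted p = 0.00307) in CD11c- and 0.35 (SE 0.09, adjusted p = 0.00340) in CD11c+ cells. Without EAE CD11c- library 5 or 6 the former was not called, and without neonatal CD11c+ library 14 or 15 or EAE CD11c+ library 3 the latter was not called. Both were also lost with no filter on low counts (adjusted p = 0.0811 and 0.0507) and with only the groups compared (adjusted p = 0.0363 and 0.0267).

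Nrros (chr16:32142785-32165594, minus strand, 4.18 kb of exon) moved the other way in neonates, but 2 libraries decided the call. It was 244, 273 and 247 CPM in adult, 213, 345, 433 and 442 in neonatal CD11c- and 423, 414, 408 and 437 in neonatal CD11c+ libraries. In EAE it was 277, 255 and 287 CPM in CD11c- and 120, 292 and 270 in CD11c+ libraries. All neonatal libraries were above all adult ones except library 17, and library 1 was the lowest of all. Against adult, the log2 fold changes were 0.49 (SE 0.24, adjusted p = 0.122) in neonatal CD11c- and 0.72 (SE 0.25, adjusted p = 0.0223) in neonatal CD11c+ microglia, neither of which was called. Without libraries 1 and 17 they were 0.68 (SE 0.09, adjusted p = 1.66e-05) and 0.72 (SE 0.09, adjusted p = 2.47e-06), both called higher. The change in SE comes with the removal of the 2 libraries, since all groups share a single estimate of the spread for each gene. In EAE the log2 fold changes were 0.10 (SE 0.26, adjusted p = 0.826) in CD11c- and -0.16 (SE 0.26, adjusted p = 0.666) in CD11c+ microglia, and the latter was 0.14 (SE 0.10, adjusted p = 0.263) without libraries 1 and 17. Nrros was also higher in neonatal than in EAE CD11c+ microglia, by 0.89 (SE 0.25, adjusted p = 0.00905) with all libraries and 0.58 (SE 0.10, adjusted p = 0.000179) without the 2. With all but 1 library in turn, the call between neonatal and EAE CD11c+ microglia was kept in 3 of 17 fits. Libraries 17 and 1 have the 2 highest mitochondrial shares of the series. The part of RNA quality in the Nrros values was not tested.

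**Figure D3:**
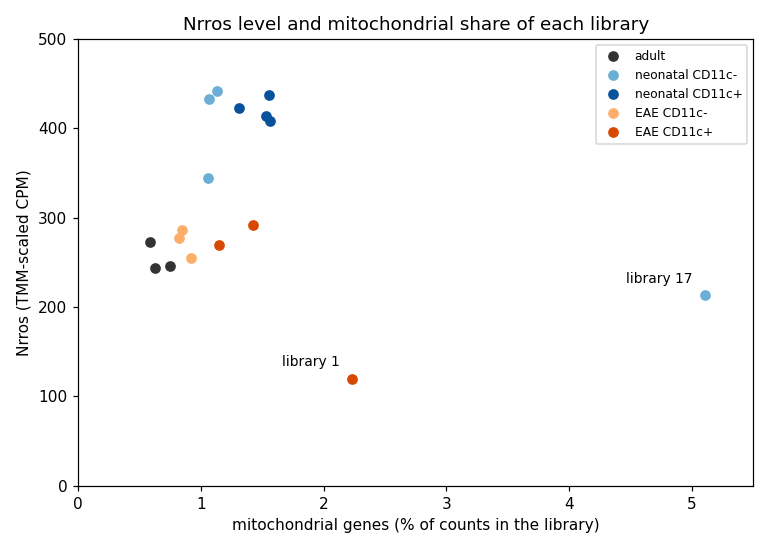
Nrros in TMM-scaled CPM (y axis) against the percentage of counts in mitochondrial genes (x axis), 1 point per library, colored by group. Library 17 at 5.10% and library 1 at 2.23% have 213 and 120 CPM, the lowest values of the series, while the other 15 libraries lie between 0.588% and 1.56%.

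Among the receptors, Tgfbr1 fell in every group and Tgfbr2 in neonatal CD11c- microglia alone. Tgfbr1, the type I receptor (chr4:47353222-47414931, plus strand, 6.53 kb of exon), had 2694, 2734 and 2963 CPM in adult, 1514, 1136, 1457 and 1273 in neonatal CD11c- and 1029, 1144, 1034 and 959 in neonatal CD11c+ libraries. In EAE it had 1509, 1311 and 1420 CPM in CD11c- and 1415, 994 and 1080 in CD11c+ libraries. No library of these 4 groups came near the adult range, and library 1 was the highest of its group. Relative to the adult level, Tgfbr1 was 2.08-fold lower in neonatal CD11c-, 2.69-fold lower in neonatal CD11c+, 1.98-fold lower in EAE CD11c- and 2.41-fold lower in EAE CD11c+ microglia. The log2 SE was 0.13, 0.13, 0.14 and 0.14, and the adjusted p was 4.17e-06, 7.01e-08, 3.64e-05 and 1.20e-06.

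Tgfbr2, the type II receptor (chr9:116084293-116175360, minus strand, 8.19 kb of exon), stayed within a narrower range. It had 725, 793 and 784 CPM in adult, 586, 597, 594 and 510 in neonatal CD11c- and 685, 749, 745 and 647 in neonatal CD11c+ libraries. In EAE it had 784, 780 and 742 CPM in CD11c- and 721, 721 and 834 in CD11c+ libraries. The neonatal CD11c- libraries were below all others, and the other 4 groups overlapped. The log2 fold change in neonatal CD11c- microglia was -0.42 (SE 0.10, adjusted p = 0.00228) against adult and -0.43 (SE 0.10, adjusted p = 0.00228) against EAE CD11c- microglia. The call against adult was lost without adult library 22 or 23 or neonatal CD11c- library 20, and the call against EAE without that neonatal library or EAE CD11c- library 4 or 5. With no filter on low counts the call against adult was lost too (adjusted p = 0.0126), and with only the groups compared both were (adjusted p = 0.0255 and 0.0168). In EAE, Tgfbr2 differed from adult by 0.002 (SE 0.11, adjusted p = 0.993) in CD11c- and -0.02 (SE 0.11, adjusted p = 0.921) in CD11c+ microglia on the log2 scale. The level of Tgfbr1 relative to Tgfbr2, both as CPM per kb of exon within a library, was 4.32 to 4.74 in adult, 2.39 to 3.24 in neonatal CD11c-, 1.74 to 1.91 in neonatal CD11c+, 2.11 to 2.41 in EAE CD11c- and 1.62 to 2.46 in EAE CD11c+ libraries. The adult libraries had the highest ratios, with no overlap with another group.

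Of the receptor-regulated SMAD genes, Smad3 fell in every group and Smad2 was called in none. Smad3 (chr9:63646767-63757994, minus strand, 5.54 kb of exon) had 249, 246 and 229 CPM in adult, 140, 126, 125 and 141 in neonatal CD11c- and 93.0, 98.4, 98.5 and 96.4 in neonatal CD11c+ libraries. In EAE it had 161, 138 and 156 CPM in CD11c- and 128, 105 and 104 in CD11c+ libraries. All libraries of the 4 groups were below the adult ones, and within each condition all CD11c+ libraries were below all CD11c- libraries. The log2 fold changes against adult were -0.86 (SE 0.10), -1.32 (SE 0.10), -0.67 (SE 0.11) and -1.11 (SE 0.11), first in neonates, CD11c- before CD11c+, and then likewise in EAE. The adjusted p was 1.73e-06, 6.53e-09, 0.000106 and 2.11e-07 in that order.

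Smad2 (chr18:76241580-76310963, plus strand, 8.78 kb of exon) had 52.7 to 61.2 CPM in adult, 54.3 to 58.1 in neonatal CD11c-, 44.4 to 53.8 in neonatal CD11c+, 49.2 to 54.5 in EAE CD11c- and 42.9 to 56.0 in EAE CD11c+ libraries. Its log2 fold changes against adult lay between -0.01 (SE 0.11, adjusted p = 0.954) in neonatal CD11c- and -0.26 (SE 0.12, adjusted p = 0.0871) in EAE CD11c+ microglia. In EAE CD11c+ microglia library 1 had the highest value, and without libraries 1 and 17 the difference was -0.40 (SE 0.10, adjusted p = 0.00268), called lower. As CPM per kb of exon, Smad3 was 6.46 to 6.89 times Smad2 in adult libraries, 3.47 to 4.13 times in neonatal CD11c-, 2.76 to 3.51 times in neonatal CD11c+, 4.27 to 5.18 times in EAE CD11c- and 3.63 to 3.88 times in EAE CD11c+ libraries. The adult ratios were again above those of every other library.

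Smad4 (chr18:73639009-73703780, minus strand, 3.71 kb of exon), the shared partner of the other SMADs, changed by less than Smad3. It had 80.6, 74.4 and 79.5 CPM in adult, 59.3, 60.2, 66.3 and 56.9 in neonatal CD11c- and 65.4, 59.6, 63.6 and 62.4 in neonatal CD11c+ libraries. Its EAE levels were 72.6, 75.5 and 75.7 CPM in CD11c- and 59.5, 59.7 and 62.6 in CD11c+ libraries. The neonatal and EAE CD11c+ libraries were below the adult range, while EAE CD11c- libraries overlapped it. The log2 fold changes were -0.36 (SE 0.09, adjusted p = 0.00255), -0.32 (SE 0.08, adjusted p = 0.00527), -0.07 (SE 0.09, adjusted p = 0.658) and -0.37 (SE 0.09, adjusted p = 0.00398). The Smad4 call in neonatal CD11c+ microglia, the smallest change of any member called there, was kept in 7 of 17 fits that left out 1 library. Without adult library 21 or 23 the calls of the other 2 groups were lost too, as they were without neonatal CD11c- library 20 and EAE CD11c+ library 2, each for its own group. With no filter on low counts all 3 calls were lost (adjusted p = 0.0356, 0.0922 and 0.0852), with no scaling factor the neonatal ones (0.0134 and 0.0109), and with only the groups compared those of neonatal CD11c- (0.0406) and EAE CD11c+ microglia (0.0315).

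All 3 inhibitors among the members fell in both neonatal groups. Smad7, the inhibitory SMAD (chr18:75367529-75395935, plus strand, 4.52 kb of exon), had 235, 167 and 158 CPM in adult, 62.3, 79.2, 65.4 and 85.6 in neonatal CD11c- and 39.8, 47.6, 53.4 and 80.9 in neonatal CD11c+ libraries. Its EAE levels were 171, 164 and 150 CPM in CD11c- and 112, 164 and 149 in CD11c+ libraries. Every neonatal library was below every adult and EAE library. It was 2.56-fold lower in neonatal CD11c- (adjusted p = 4.37e-05) and 3.38-fold lower in neonatal CD11c+ microglia (adjusted p = 1.64e-06, both with a log2 SE of 0.20), the largest fold change of any member in each group. In EAE the log2 fold changes were -0.21 (SE 0.22, adjusted p = 0.542) in CD11c- and -0.40 (SE 0.22, adjusted p = 0.163) in CD11c+ microglia, neither of which was called. Against EAE microglia of the same subset, Smad7 was lower by log2 fold changes of -1.15 (SE 0.20, adjusted p = 0.000240) in neonatal CD11c- and -1.36 (SE 0.20, adjusted p = 3.81e-05) in neonatal CD11c+ cells.

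The immediate early gene Fos, which cells switch on within minutes of a stimulus, was high in the same libraries as Smad7 within some groups. Fos was 9539 CPM in adult library 21 and 3877 and 4497 in the other 2 adult libraries, and 4835 CPM in neonatal CD11c+ library 16 against 426 to 550 in the other 3 of its group. Libraries 21 and 16 also had the highest Smad7 of their groups, at 235 and 80.9 CPM. Fos was 362 to 1327 CPM in neonatal CD11c-, 1820 to 1980 in EAE CD11c- and 726 to 1198 in EAE CD11c+ libraries. Its part in the Smad7 difference was not tested.

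Ski (chr4:155154075-155222592, minus strand, 5.56 kb of exon) had 637, 641 and 701 CPM in adult, 504, 412, 372 and 366 in neonatal CD11c- and 334, 343, 355 and 329 in neonatal CD11c+ libraries. Its EAE levels were 508, 495 and 499 CPM in CD11c- and 516, 426 and 456 in CD11c+ libraries. All libraries of the 4 groups were below the adult range. The log2 fold changes were -0.67 (SE 0.11, adjusted p = 0.000113), -0.96 (SE 0.11, adjusted p = 1.60e-06), -0.40 (SE 0.12, adjusted p = 0.0205) and -0.50 (SE 0.12, adjusted p = 0.00291), so that EAE CD11c- microglia alone missed the threshold. The EAE CD11c+ call was lost without adult library 23 or EAE CD11c+ library 2 or 3, with no filter on low counts (adjusted p = 0.0120) and with only the groups compared (adjusted p = 0.0155). Without libraries 1 and 17 the EAE CD11c- group passed too (adjusted p = 0.000405).

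Skil (chr3:31095058-31122577, plus strand, 9.69 kb of exon), the close relative of Ski, had 455, 467 and 517 CPM in adult, 357, 224, 250 and 272 in neonatal CD11c- and 172, 187, 207 and 254 in neonatal CD11c+ libraries. Its EAE levels were 427, 385 and 375 CPM in CD11c- and 591, 330 and 371 in CD11c+ libraries. Libraries 17 and 1 had the highest value of their groups, and library 1 was above the adult range. In neonates Skil was lower by log2 fold changes of -0.80 (SE 0.19, adjusted p = 0.00244) in CD11c- and -1.23 (SE 0.19, adjusted p = 3.33e-05) in CD11c+ microglia. In EAE the differences were -0.28 (SE 0.20, adjusted p = 0.353) in CD11c- and -0.16 (SE 0.20, adjusted p = 0.581) in CD11c+ microglia, and the latter was -0.45 (SE 0.14, adjusted p = 0.0110) without libraries 1 and 17. Without library 16 as well, it was called lower (-0.45, adjusted p = 0.00158). The neonatal CD11c- call was lost without adult library 23 or neonatal CD11c- library 18. Per kb of exon, Ski was 2.36 to 2.44 times Skil in adult, 2.35 to 3.21 in neonatal CD11c-, 2.26 to 3.38 in neonatal CD11c+, 2.07 to 2.32 in EAE CD11c- and 1.52 to 2.25 in EAE CD11c+ libraries. The neonatal ratios overlapped the adult ones, and those of all EAE libraries lay below them.

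The 2 subsets of a condition differed in fewer members than either did from adult microglia. In neonates, 1 member was lower in CD11c+ than in CD11c- microglia (2.31% of all genes lower, 5.44% higher), namely Smad3, by a log2 fold change of -0.46 (SE 0.09, adjusted p = 0.00222). This call was lost without neonatal CD11c+ library 13, with no filter on low counts (adjusted p = 0.0130) and with only the groups compared (adjusted p = 0.0109). Tgfbr2 was higher in each neonatal CD11c+ library than in any neonatal CD11c- library, by a log2 fold change of 0.31 (SE 0.09, adjusted p = 0.0297), which missed the threshold. Tgfbr1 was at -0.37 (SE 0.12, adjusted p = 0.0448). Without libraries 1, 16 and 17, Smad3, Smad7 and Skil were called lower and Tgfbr2 higher, in a fit whose share over all genes is not given here.

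In EAE, edgeR's quasi-likelihood test called 0 members between CD11c+ and CD11c- microglia (2.71% of all genes lower, 1.66% higher), with 2 lower and 0 higher at an unadjusted p under 0.05. DESeq2 called 2 lower, the likelihood ratio test 1 and limma voom 2, and none of the 3 called a member higher. The shares over all genes belong to the quasi-likelihood test at an adjusted p of 0.01. Those for the unadjusted threshold and the other tests are not given here, so their counts have no background beside them. Smad3 was nearest, at a log2 fold change of -0.44 (SE 0.11, adjusted p = 0.0138), and it was called lower without libraries 1 and 17 (-0.54, SE 0.09, adjusted p = 0.000440), as was Tgfbr1 (-0.45, SE 0.11, adjusted p = 0.00862). EAE CD11c- libraries also held far more neutrophil and monocyte marker RNA than EAE CD11c+ libraries, by the sums above. Whether the subset difference itself differed between neonates and EAE was tested as an interaction, and 0 members were called by edgeR's quasi-likelihood test, DESeq2, the likelihood ratio test or limma voom (1.43% and 0.107% of all genes were called higher and lower). At an unadjusted p under 0.05 there were 2, Tgfbr2 and Smad4 (adjusted p = 0.200 and 0.119). The share of all genes at that unadjusted threshold is not given here. For Smad3 the subset differences were near each other in the 2 conditions, with an interaction of -0.03 (SE 0.14, adjusted p = 0.942).

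Between neonates and EAE, Tgfb1 was higher and Smad7 lower in neonates of either subset. In CD11c- microglia of neonates relative to EAE, 1 member was higher (10.1% of all genes) and 2 lower (13.4%), and in CD11c+ microglia 5 differed (24.6%), 2 being higher and 3 lower (12.6% of all genes were lower). Higher in neonates were Tgfb1 in both subsets and Nrros in CD11c+ cells. Lower were Smad7 in both subsets, Tgfbr2 in CD11c- cells, and Ski (-0.46, SE 0.11, adjusted p = 0.00353) and Skil (-1.07, SE 0.19, adjusted p = 0.000179) in CD11c+ cells. The Ski call was lost without neonatal CD11c+ library 13 or 14 or EAE CD11c+ library 1. Without libraries 1 and 17, 2 members were higher and 5 lower in the CD11c- comparison. The share of all genes called in that fit is not given here, so these counts have no background beside them. Tgfbr1 differed by -0.07 (SE 0.13, adjusted p = 0.713) and -0.16 (SE 0.13, adjusted p = 0.373) on the log2 scale in the 2 subsets, and Smad3 by -0.19 (SE 0.10, adjusted p = 0.144) and -0.22 (SE 0.10, adjusted p = 0.100).

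Ordered by mean level, adult microglia were highest for 8 of the 10 members, all but Nrros (neonatal CD11c+) and Tgfbr2 (EAE CD11c-, 769 against 767 CPM in adult). The share of all genes that were highest in adult microglia is not given here. For Smad2 the adult mean was 56.8 against 56.5 CPM in the next group (adjusted p = 0.954). Neighbors in the order differed past the threshold in 3 places, namely between adult and EAE CD11c- for Tgfbr1 and for Smad3, and between EAE CD11c+ and neonatal CD11c- for Smad7 (log2 fold change -0.96, SE 0.20, adjusted p = 0.00121, with 12.8% of all genes lower). No other neighboring groups differed past it. Scaled by exon length, the receptor Tgfbr1 was the most abundant member in every group, at 428 ± 22.2 CPM per kb in adult (SD, n = 3) and 159 ± 11.7 in neonatal CD11c+ microglia (n = 4). Smad2 was the least abundant in every group, at 6.47 ± 0.48 and 5.81 ± 0.51 CPM per kb in the same groups. Nrros was 60.9 ± 3.81 CPM per kb in adult and 101 ± 3.02 in neonatal CD11c+ microglia.

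**Figure D4:**
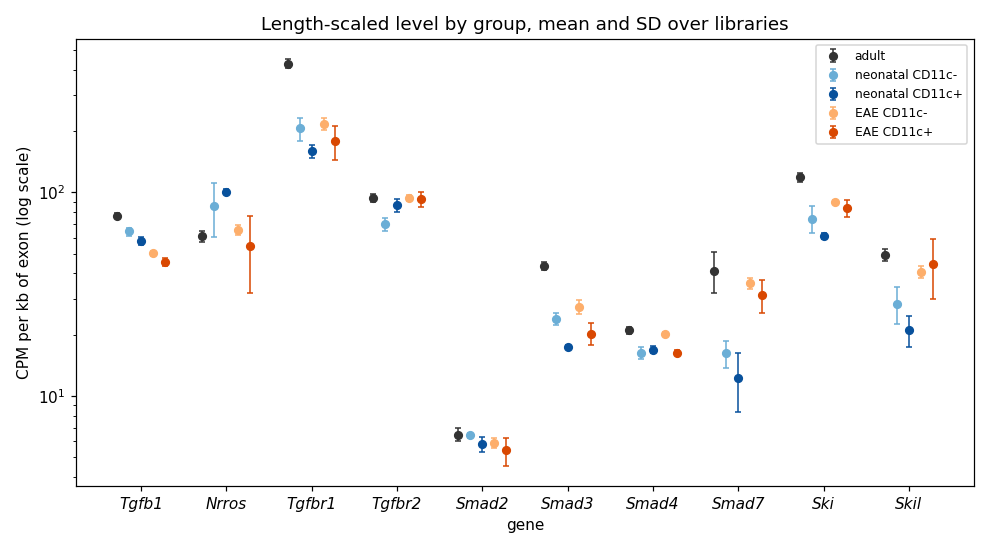
Level per kb of exon (y axis, log scale) of the 10 genes (x axis) in the 5 groups, as mean and SD over 3 or 4 libraries. Tgfbr1 is the most abundant member and Smad2 the least in each group.

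The genes whose log2 CPM followed a member most closely over the 17 libraries are given by Pearson's r as a description, over points that share their groups and library quality. Tgfbr1 was closest to Rab6b (r = 0.968), Fam102b (0.965) and Dock9 (0.959), and Smad3 to Sipa1l1 (0.977), St3gal6 (0.974) and Vsir (0.973). Smad7 was closest to Socs3 (0.977), an inhibitor of cytokine signaling, then to Abi3 (0.970) and Lipe (0.965). Tgfb1 was closest to Zfpm1 (0.967), 2610042L04Rik (0.954) and Gpr34 (0.946), and Nrros to Lrrc25 (0.959), Gnpat (0.958) and Ube3b (0.957). Ski was closest to Chst11 (0.968) and Scube1 (0.962), and Skil to Ryk (0.966), Fat3 (0.962) and Peli1 (0.958). The closest genes were less alike for Smad4 (Cds2, 0.907, Ampd3, 0.893, and Stat5b, 0.892), Tgfbr2 (Fam49a, 0.892, Rarg, 0.878, and Hspa12a, 0.875) and Smad2 (Map4k5, 0.863, Siah1a, 0.830, and Maml3, 0.804).

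Of 103 other genes of the pathway, in 7 lists, 70 were tested. Higher and lower than in adult microglia were 7 and 18 in neonatal CD11c-, 12 and 17 in neonatal CD11c+, 8 and 7 in EAE CD11c- and 7 and 16 in EAE CD11c+ microglia, and 41 (58.6%) differed over the 5 groups, where 47.7% of all genes did. The higher counts, 10%, 17.1%, 11.4% and 10% of the 70, stand against 13.2%, 18.0%, 11.0% and 15.1% of all genes, and the lower counts, 25.7%, 24.3%, 10% and 22.9%, against 12.1%, 15.3%, 4.72% and 11.1%. The median log2 fold changes of the 70 genes were -0.10, -0.12, -0.23 and -0.22. Of 5 other ligand genes tested of 16, Bmp1, a protease gene named among the bone morphogenetic proteins, rose in both neonatal groups, from 22.4 ± 2.05 CPM in adult (SD, n = 3) to 66.1 ± 5.5 in CD11c- and 52.8 ± 4.55 in CD11c+ microglia (n = 4 each). Bmp2 rose in neonatal CD11c+ microglia, to 10.4 ± 3.96 CPM from an adult level of 0.390 ± 0.343, which is near the floor. Inhba, an activin subunit gene, was 2.78 ± 0.42 CPM in EAE CD11c- microglia and at most 0.310 on average in the other groups, and Tgfb2 was at most 1.42 CPM on average. Inhba passed the filter on low counts through the EAE CD11c- libraries alone. None of these 5 other ligand genes was called lower than in adult. Adult Bmp2 and Inhba were near the floor, so a fall in them could hardly have been called.

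Of 9 genes of latency and activation tested of 15, 6 were lower and 1 higher in neonatal CD11c-, 4 lower and 2 higher in neonatal CD11c+, 1 lower and 1 higher in EAE CD11c-, and 2 lower and 1 higher in EAE CD11c+ microglia. Beside this list and those that follow stand the shares of all genes in the same order of groups. These were 12.1%, 15.3%, 4.72% and 11.1% lower and 13.2%, 18.0%, 11.0% and 15.1% higher. Thbs1, the gene of thrombospondin 1, a known activator of latent TGF-beta, fell in neonatal CD11c- microglia from 40.3 ± 10.2 to 20.9 ± 5.21 CPM and rose in EAE, to 100 ± 13.6 in CD11c- and 68.4 ± 3.32 in CD11c+ microglia. Itgb1 rose in both neonatal groups, by log2 fold changes of 1.24 (SE 0.13) and 0.85 (SE 0.13), while Itgb3 fell in both and in EAE CD11c+ microglia (-0.63, -0.48 and -0.94, SE 0.12, 0.12 and 0.13). Fbn1, a microfibril gene, had at most 2.26 CPM on average. Ltbp3, a latent TGF-beta binding protein gene named after its values were seen, fell in all 4 groups by log2 fold changes of -1.12, -0.80, -1.02 and -1.11.

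Of 9 other receptor genes tested of 12, 3, 4, 2 and 5 fell in the 4 groups and 0, 0, 1 and 1 rose. Eng, the coreceptor endoglin, fell in all 4. It was 237 ± 20.1 CPM in adult, 110 ± 18.0 in CD11c- and 66.9 ± 4.50 in CD11c+ cells of neonates, and 154 ± 5.52 and 150 ± 12 in those of EAE mice. Acvrl1, a type I receptor gene, rose in both EAE groups, by log2 fold changes of 0.73 (SE 0.13) and 0.50 (SE 0.13), and fell in neonatal CD11c- microglia (-0.77, SE 0.13). Acvr2a and Acvr2b, type II receptor genes for activins, were each called lower in 3 groups. Acvr2a did not pass in neonatal CD11c- (adjusted p = 0.149), and Acvr2b did not pass in EAE CD11c- microglia (adjusted p = 0.0745).

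Of 11 other SMADs and adaptors tested of 12, 0, 1, 1 and 3 fell and 2, 1, 0 and 0 rose. Dab2, an endocytic adaptor gene, rose from an adult level of 40.6 ± 7.42 CPM to 280 ± 115 in CD11c- and 671 ± 215 in CD11c+ cells of neonates, the groups in which border macrophage markers were also high. The part of those cells in the Dab2 levels was not tested. Tgfbrap1, a receptor-associated protein gene, rose in neonatal CD11c- (0.42, SE 0.08) and fell in EAE CD11c- and CD11c+ microglia (-0.41 and -0.70, SE 0.09 each). Smad1 fell in neonatal CD11c+ (-0.87, SE 0.12) and Smad5 in EAE CD11c+ microglia (-0.65, SE 0.14).

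Of 11 other inhibitors tested of 18, 3, 4, 2 and 3 fell and 1, 2, 0 and 0 rose. Pmepa1, a feedback inhibitor that retains SMADs, fell in all 4 groups, from 370 ± 16.8 CPM in adult to 212 ± 37.1, 116 ± 6.31, 233 ± 15.5 and 218 ± 3.25. Smurf1, a ubiquitin ligase gene, fell in all 4 as well, by log2 fold changes of -0.72 (SE 0.10), -1.02 (SE 0.10), -0.52 (SE 0.11) and -0.64 (SE 0.11). Wwp1, a ligase gene of the same family, rose in both neonatal groups (0.87, SE 0.22, and 1.69, SE 0.22). Tgif1, a corepressor gene, fell in both neonatal groups (-1.77, SE 0.26, and -1.22, SE 0.25), and its CPM in library 16 was 109 against 38.0 to 45.0 in the other 3 libraries of that group.

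Of 13 nuclear partners and activators tested of 14, 3, 2, 0 and 1 fell and 2 rose in each group. Tfdp1 and Rbl1, cell cycle genes that partner E2F factors, rose in all 4 groups, Tfdp1 by log2 fold changes of 1.48, 1.25, 1.28 and 1.10 (SE 0.11 to 0.12) and Rbl1 by 1.62, 1.07, 0.92 and 0.93 (SE 0.15 to 0.16). Jun fell in both neonatal groups and EAE CD11c+ microglia, and Fos in neonatal CD11c- microglia, with adult means of 7057 ± 1923 and 5971 ± 3106 CPM. Of 12 general target genes tested of 16, 3, 2, 1 and 2 fell and 0, 3, 3 and 3 rose. Fn1, the fibronectin gene, rose from an adult level of 4.21 ± 0.73 CPM to 31.3 ± 8.49 in CD11c+ cells of neonates, and to 436 ± 161 in CD11c- and 1123 ± 289 in CD11c+ cells of EAE mice. Tgfbi rose in EAE alone (1.16, SE 0.26, and 2.07, SE 0.26), and Bhlhe40 rose in all groups but neonatal CD11c-, where it fell. Ldlrad4, a SMAD-binding inhibitor gene named after its values were seen, fell in all 4 groups by log2 fold changes of -0.48, -1.08, -0.57 and -0.85. The shares of the 12 target genes that fell were 25%, 16.7%, 8.33% and 16.7%, against 12.1%, 15.3%, 4.72% and 11.1% of all genes. Those that rose were 0%, 25%, 25% and 25%, against 13.2%, 18.0%, 11.0% and 15.1%. With 12 genes tested, no direction of the list is read from these counts.

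A separate list of 18 microglial genes that are known to depend on TGF-beta was tested in full. Against adult, 9 (CD11c-) and 11 (CD11c+) of these fell in neonates and 8 and 11 in EAE, while 1, 2, 1 and 1 rose. The shares that fell were 50%, 61.1%, 44.4% and 61.1%, against 12.1%, 15.3%, 4.72% and 11.1% of all genes. Those that rose were 5.56%, 11.1%, 5.56% and 5.56%, against 13.2%, 18.0%, 11.0% and 15.1%. Median log2 fold changes were -0.46, -0.78, -0.52 and -1.03, against -0.005, -0.025, -0.01 and -0.008 over all genes. Selplg, a selectin ligand gene, fell in all 4, from 4062 ± 441 CPM in adult to 892 ± 228, 395 ± 32.0, 2632 ± 302 and 1796 ± 29.7. Slc2a5, a fructose transporter gene, fell in all 4, by log2 fold changes of -1.08 (SE 0.13), -2.03 (SE 0.14), -0.88 (SE 0.15) and -1.84 (SE 0.15). Tmem119, a marker of mature microglia, was 2579 ± 190 CPM in adult and 2111 ± 194 in EAE CD11c- microglia (adjusted p = 0.354) and was called lower in the other 3 groups. Gas6, a ligand of TAM receptors, rose in both neonatal groups, from 215 ± 4.47 CPM in adult to 1014 ± 167 and 1153 ± 78.3. Between subsets, 8 of the 18 genes were lower in neonatal CD11c+ than CD11c- microglia (2.31% of all genes) and 2 in EAE CD11c+ than CD11c- microglia (2.71%). Some of the 18, Cx3cr1 and Fcrls among them, are also on the microglia marker list, so the share of other cells in a pool bears on them, and its part was not tested.

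**Figure D5:**
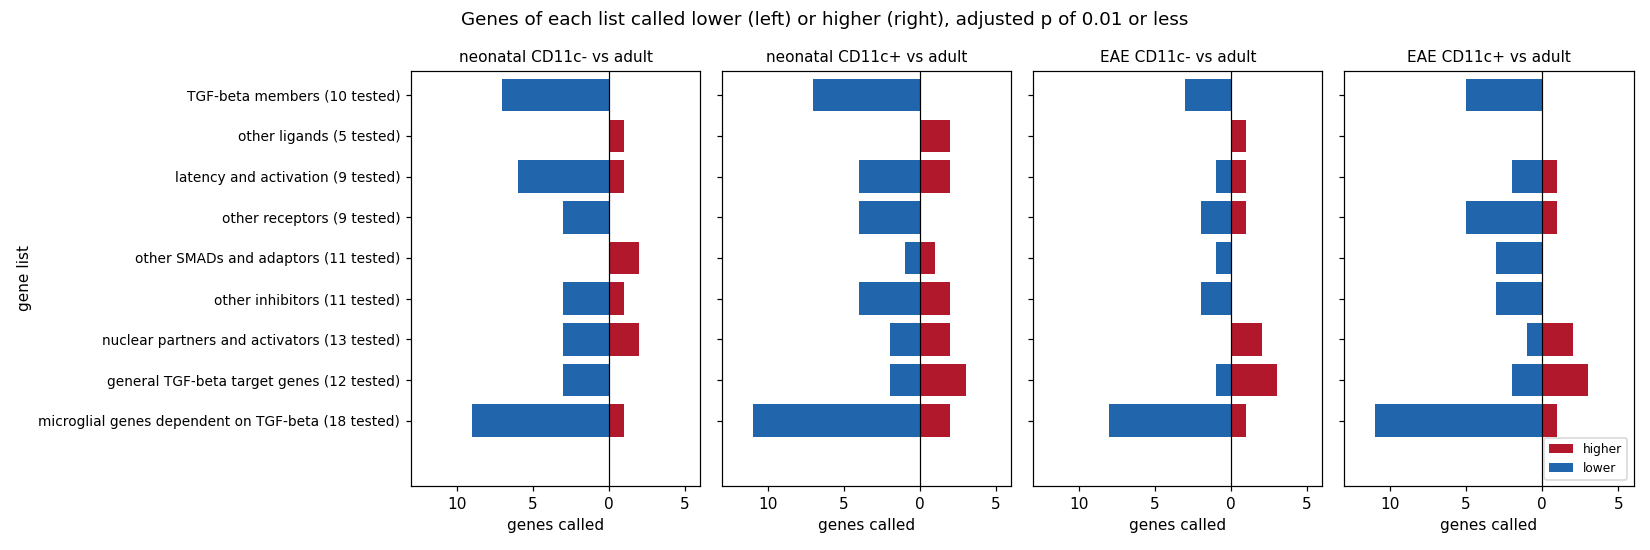
Number of genes of each list called higher (right, red) or lower (left, blue) than in adult microglia (x axis) for 9 gene lists (y axis, with the number tested) in 4 panels, 1 per group. The 10 members have bars to the left in each panel and none to the right, while the general target genes have bars to the right in 3 of the 4 panels.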

How the data were processed

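RNA of sorted mouse microglia from pools of mice was sequenced as single reads (TruSeq RNA kit), with a strand setting of the counting not given in the sources used here. Raw counts per Ensembl gene were deposited by the authors. Per the submitters' processing notes, reads were aligned to GRCm38 with STAR 2.3.11 and reads per gene came from HTSeq 0.5.4, without normalization. Symbols and gene models came from GENCODE M21, and no exon of a member overlapped another gene. Every row carried a gene ID, and 40340 of the 41388 IDs had a symbol in GENCODE M21. Counts ranged from 5115489 to 10436066 per library, and intervals and floors cover counting error only.

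A gene was tested where 3 or more libraries reached a CPM of 1. The 5 groups, taken from the labels, were fitted in 1 model with edgeR 4.0.16 (limma 3.58.1, R 4.3.3) after TMM scaling, and compared by the quasi-likelihood test, with p-values adjusted over the 13060 genes (Benjamini-Hochberg). SEs were derived from each F statistic and its log2 fold change. All p-values of fold changes are these adjusted values unless called unadjusted. The members and the gene lists were chosen with earlier results of these data known. Each member is named, as are up to 4 genes of each pathway list (marker lists are given by their sums) with the smallest adjusted p over the 5 groups and the 3 genes nearest each member by Pearson's r of log2 CPM (prior count 2), except for a few genes that are not reported here. Replicates are separately numbered samples, pools by the study's methods, which came from several sorts and EAE immunizations. The labels do not say which libraries share a sort, so p-values measure the spread between these libraries. No 2 libraries of a group agreed within sampling noise. The tests were run on simulated counts with the spread of this fit. No simulated library was set apart from its group, so that check does not cover such libraries. Alternatives were DESeq2 1.42.0, limma voom, the likelihood ratio test, other scalings, filters and thresholds, the groups compared alone, and libraries left out.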

Additional observations from a re-analysis of the deposited data

Results flagged for a closer look

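In 2 of the 20 groups of 4 libraries tested, a library lay apart from the other 3 by Dixon's criterion at 95%, where chance alone gives about 1 in 20. Tgfbr2 was 510 CPM in neonatal CD11c- library 20, against 586, 597 and 594 in the other libraries of the group (gap over range 0.869). Smad2 was 44.4 CPM in neonatal CD11c+ library 14, against 53.4, 53.8 and 52.6 in the others (0.868). Groups of 3 libraries, among them EAE CD11c+ with library 1, were not tested by this criterion.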

How the results depend on the processing

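No paired analysis was possible because the groups share no replicate number and the labels do not link libraries of a sort. The depth allowed every member to be counted far above the floor. Of the called values of single members over the 8 comparisons of 2 groups, 9 were lost with no low count filter, 9 with only the groups compared, 3 with no scaling factor and 1 with a CPM of at least 5. Every lower call against adult was kept without libraries 1 and 17. Called lower as well in that fit were Tgfb1 in neonatal CD11c-, Ski in EAE CD11c- and Smad2 in EAE CD11c+ microglia. The cause of the changes below was not tested. Shares over all genes are given above for the main fit alone. The changed counts below are therefore not set against the share in their own fit.

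Counts of members called higher than in adult, 0 with all libraries, were 1 in neonatal CD11c- microglia with limma voom, without libraries 1 and 17, and without libraries 1, 16 and 17. They were 1 in neonatal CD11c+ with no low count filter, DESeq2, limma voom, only the groups compared, an adjusted p of 0.05 and both sets of libraries left out. The gene was Nrros. With each library left out they ran from 0 to 1 in neonatal CD11c+ and stayed at 0 in the other 3 groups. Members lower in EAE CD11c+ than in adult fell from 5 to 3 with no filter and with only the groups compared, and leaving out a library gave 4 to 7 in neonatal CD11c-, 6 to 7 in neonatal CD11c+, 3 to 4 in EAE CD11c- and 3 to 6 in EAE CD11c+.

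Between neonatal subsets, higher members went from 0 to 1 (Tgfbr2) with DESeq2, limma voom, an adjusted p of 0.05 and without libraries 1, 16 and 17. Lower members went from 1 to 0 with no filter and with only the groups compared, to 2 at an adjusted p of 0.05, and to 3 with limma voom and without libraries 1, 16 and 17 (0 to 1 with each library left out, 0 without neonatal CD11c+ library 13). Between EAE subsets, lower members went from 0 to 1 with no scaling factor, the likelihood ratio test and an adjusted p of 0.05, and to 2 with DESeq2, limma voom and both sets of libraries left out (0 to 1 with each left out, 1 without library 17 or library 1).

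Between neonatal and EAE CD11c- microglia, higher members went from 1 to 0 with no filter and with only the groups compared, and to 2 with limma voom and both sets of libraries left out (0 to 1 with each left out, 0 without EAE CD11c- library 5 or 6). Lower members went from 2 to 1 with only the groups compared, 4 at an adjusted p of 0.05, and 5 with limma voom and both sets left out (1 to 4 with each left out, 1 without neonatal CD11c- library 20 or EAE CD11c- library 4 or 5, 4 without library 17 or library 1). Between neonatal and EAE CD11c+ microglia, higher members went from 2 to 1 with no scaling factor, no filter and a CPM of at least 5, and to 0 with only the groups compared. They ran from 0 to 2 with each library left out, being 0 without neonatal CD11c+ library 14 or 15 or EAE CD11c+ library 3, while lower members ran from 2 to 3. Interaction counts stayed at 0, and members with any difference ran from 7 to 9.

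Signs turned only for log2 fold changes that were not called. Smad2 in neonatal CD11c- against adult was 0.004 with DESeq2 size factors and with its test, 0.042 with no scaling factor, 0.021 with only the groups compared, and -0.062 to 0.045 with each library left out. Tgfbr2 in EAE CD11c- against adult was -0.009 with a CPM of at least 5, -0.006 with limma voom and -0.037 to 0.037 with each left out. In EAE CD11c+ against adult, Tgfbr2 was 0.016 with no filter, 0.019 without libraries 1 and 17, 0.018 without libraries 1, 16 and 17 and -0.089 to 0.020 with each left out. In EAE CD11c+ against CD11c-, Tgfbr2 was 0.006 with limma voom, 0.016 without either set and -0.092 to 0.018 with each left out. Nrros in EAE CD11c+ was 0.070 with limma voom, 0.144 without libraries 1 and 17, 0.143 without libraries 1, 16 and 17 and -0.381 to 0.144 with each left out against adult, and against CD11c- it was 0.042 without either set and -0.483 to 0.042 with each left out. Skil in EAE CD11c+ against CD11c- was -0.129 with limma voom, -0.173 without libraries 1 and 17, -0.174 without libraries 1, 16 and 17 and -0.173 to 0.283 with each left out, and against adult it was -0.451 to 0.005 with each left out. Tgfbr1 in neonatal against EAE microglia was -0.133 to 0.024 in CD11c- with each left out, and in CD11c+ 0.020 with limma voom, 0.006 without libraries 1 and 17, 0.045 without libraries 1, 16 and 17 and -0.261 to 0.006 with each left out.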

Other observations

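Over the 17 libraries, the log2 CPM of some members moved together, as a description of points that share their groups and library quality. Tgfbr1 and Smad3 had the highest Pearson's r of the 45 pairs of members (0.958), followed by Ski and Skil (0.887), Smad3 and Ski (0.885) and Tgfbr1 and Ski (0.868). Nrros ran against the corepressors, with r = -0.841 for Skil and -0.714 for Ski, and libraries 17 and 1 are among the points behind both values. Tgfb1 was nearly unrelated to Skil (-0.007) and to Smad7 (-0.04).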
